A study of Glycine max with 18 samples.

Results

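In first trifoliate leaves of soybean kept in constant light, 150 annotated genes formed a group with 2 highs within the sampled day. They were 150 of 55589 annotated genes, of which 24620 were expressed with a mean TPM, the transcript abundance normalised for length and depth, of at least 1 at a time point. The members were chosen by measured values. A gene had to reach a mean of at least 5 TPM at a time point without being among the 100 genes of highest mean TPM, and its 6 time-point means on the log2(TPM + 1) scale had to span from 1 to under 2. A cosine and sine of 24 h and a cosine and sine of 12 h were each fitted to its 18 values, and R2 is the share of the variance that a pair accounts for. Of 5459 genes within the limits on level and range, 856 had a 24-h R2 under 0.3, and the 150 of these with the largest 12-h R2 are the members. Since the choice used every value of every library, the levels of the members are given as a description and no test is made on them.

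RNA-seq was made from wild-type soybean Williams 82 (Ws82) in 18 libraries, with 3 biological replicates, named L, M and R, at each of 6 times 4 h apart. The times are called ZT24, ZT28, ZT32, ZT36, ZT40 and ZT44, where the labels count from 0 at the start of sampling. All plants shared genotype, tissue and treatment: by the labels of the libraries they grew in short days (8 h light, 16 h dark) for some 18 d and then had a day of constant light (free-running conditions) at 25 °C before sampling, and the labels give no difference between the times other than the hours in constant light. In the description of the whole series, the days before constant light number 14 and have 12 h light each. The identity of the leaves was not checked against marker genes, because the sources used here name no leaf marker by its identifier.

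The plant circadian clock is a set of transcription factors that repress and activate each other in turn. LHY genes act in the morning, PRR genes follow through the day, and LUX acts with other evening genes. Most genes that such a clock drives have a single high per cycle, and expression with 2 highs per cycle, known as a 12-h or ultradian rhythm, has been described mostly in mammals. A profile sampled at 4-h steps puts a limit on what can be said of it. A 12-h pair is fixed by the means of 3 pairs of times, ZT24 with ZT36, ZT28 with ZT40 and ZT32 with ZT44, and a period of 6 h would give the same values at these times. The samples span 20 h, less than a full cycle, so a neighbour of ZT24 on its earlier side had to be read from ZT44, and whether any high came back in a later cycle was not analysed here. No source used here pairs the identifiers of the members with names, products or sequences, and 0 of the identifiers were found among the 59048 genes of the reference table, which is of another assembly. Members are therefore given by identifier and position in Gmax_Wm82_a2_v1, the genome to which the authors aligned the reads.

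Libraries differed in ways that bear on the members. Aligned sequence, obtained as coverage over FPKM, ranged from 3.11 to 7.24 Gb, and its mean was 5.88 Gb at ZT24 and ZT36, 6.40 Gb at ZT28 and ZT40 and 4.41 Gb at ZT32 and ZT44, with the ZT44 libraries the shallowest. The median log2(TPM + 1) of expressed genes was lowest in ZT32 R, at 1.03, and highest in ZT36 M, at 2.11. Over the 3 pairs of times this median averaged 1.78, 1.74 and 1.51, again lowest at ZT32 and ZT44. The 2 lows came from different times, however. By single times the median averaged 1.65, 1.49, 1.34, 1.91, 1.98 and 1.68 from ZT24 to ZT44, so it was low at ZT32 and not at ZT44. Aligned sequence averaged 5.52 Gb at ZT32 and 3.30 Gb at ZT44. ZT32 R stood apart: its annotated genes summed to 51.3% of the TPM of its assembled loci, against 56.2% to 78.6% in the other 17 libraries, and it held 227701 assembled loci without a strand. The part of these library-wide differences in the members' pattern was not tested, and the counts below are given without ZT32 R and after quantile normalization. Quantile normalization brings the libraries to a like distribution of values over all annotated genes. The median of expressed genes then still ran from 1.55 in ZT32 R to 1.70 in ZT24 L. Over the 3 pairs of times it averaged 1.70, 1.70 and 1.68.

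Within the members, the 12-h R2 ran from 0.521 to 0.842 with a median of 0.592, and the 24-h R2 had a median of 0.126. Over all 5459 genes within the limits on level and range, the medians were 0.157 for the 12-h pair and 0.526 for the 24-h pair. The spread of the members' time-point means was 1.51 on the log2(TPM + 1) scale at the median, and their SD between replicates of a time point was 0.323 at the median, against 0.352 over the genes within the limits. Most members were of moderate level: the highest time-point mean ran from 5.02 to 549 TPM with a median of 9.22 TPM, and 69 of 150 members (46.0%) averaged under 5 TPM over the day, against 35.5% of the genes within the limits. At such levels the log2(TPM + 1) scale understates fold changes. In the plot of the 2 R2 values, members fill the corner that the rule cut out, and other genes lie right up to both limits.

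**Figure D1:**
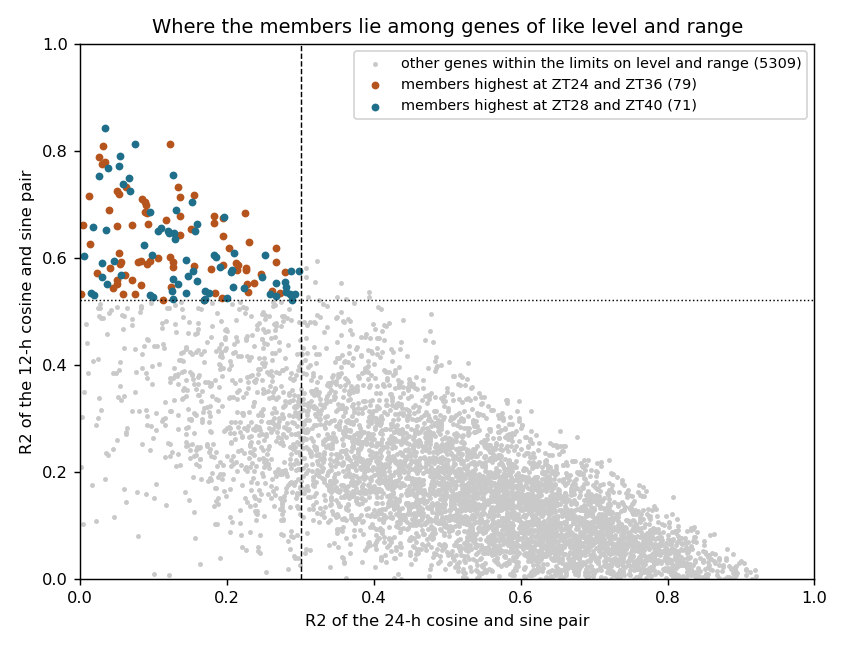
R2 of the 24-h pair (horizontal axis) and of the 12-h pair (vertical axis) for each of the 5459 genes within the limits on level and range. Coloured points are the 150 members, split by their highest pair of times, grey points are all other genes, the dashed line is the limit of 0.3 on the 24-h R2 and the dotted line the 12-h R2 of the last member, 0.521.

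To describe the group, the 6 means of each gene were read as a circle. The rule used the same values and favours such a shape, so the members' counts are no check on it. All 150 members had 2 local maxima, as did 49.6% of the genes within the limits and 91.5% of the 706 genes with a 24-h R2 under 0.3 that were not chosen. In 133 members the maxima stood at the 2 times of the highest pair, 12 h apart, which 25.9% of the genes within the limits and 52.8% of the 706 also showed. The remaining 17 members had maxima 8 h apart on the circle: 8 at ZT24 and ZT40, 6 at ZT28 and ZT44, and 3 at ZT28 and ZT36. At the 2 times of the highest pair, the smaller height above the higher neighbour was 0.402 at the median. It went down to -0.616 where not both times were maxima. In 55 of 150 members both highs were at least 0.5 above both neighbours. The share was 1.70% over the genes within the limits and 3.40% over the 706. In 52 members every library of both highs was above every library of the times beside them. This held for 1.48% of the genes within the limits and 2.27% of the 706. In the other 98 of 150 members, at least 1 library at the highest pair was not above all libraries of a neighbouring time. This was so although the rule had taken the genes of largest 12-h R2. Limma's moderated F-test of the 12-h contrasts called 26.6% of expressed genes and its F-test over the 6 times 76.3% (Benjamini-Hochberg adjusted p under 0.05). All 150 members passed both, and since the rule used the same values nothing is read from that.

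Members fell into 2 classes by the pair of times at which they were highest. Of the 150, 79 were highest at ZT24 and ZT36, 71 at ZT28 and ZT40, and 0 at ZT32 and ZT44. Genes within the limits on level and range had a like order, with 53.5%, 43.2% and 3.4% in the 3 pairs. The lowest pair was ZT32 and ZT44 in 103 members, ZT24 and ZT36 in 43, and ZT28 and ZT40 in 4. ZT32 and ZT44 was the lowest pair in 68.7% of the members and in 79.8% of the genes within the limits. A low mean of this pair was thus general, but by single times only the low at ZT32 was. Relative to a gene's own mean as deposited, the genes within the limits were at -0.62 at ZT32 and 0.07 at ZT44 at the median. The members were at -0.46 and -0.36. At ZT44, 22 of 150 members and 3139 of 5459 genes within the limits were above their own mean. The median of expressed genes also averaged lowest over this pair, at 1.51 against 1.78 and 1.74, but with 1.34 at ZT32 and 1.68 at ZT44. Its part in the lows was not tested. In leaves, a whole organ read in bulk, a lower TPM can also come from fewer cells of a type. It can likewise come from less of the gene's RNA per cell, and these cannot be told apart.

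The 79 members highest at ZT24 and ZT36 had median levels of 6.94, 3.74, 2.82, 7.65, 5.17 and 2.92 TPM at ZT24, ZT28, ZT32, ZT36, ZT40 and ZT44. As deposited, both highs were of like size. The ZT36 mean minus the ZT24 mean was 0.056 on the log2 scale at the median and within 0.5 in 58 of 79 members. Under quantile normalization the median was 0.57 at ZT24 and 0.41 at ZT36, relative to a gene's own mean. On the deposited scale ZT40 exceeded ZT28 in 68 of 79 members, by 0.498 at the median. This gap was not particular to the members and depended on the scaling. Relative to a gene's own mean, the genes within the limits were at 0.48 at ZT40 and -0.28 at ZT28 at the median, and after quantile normalization the 79 members were at -0.17 at ZT40 and -0.15 at ZT28. Of the 79 members, 75 were lowest at ZT32 and ZT44, as were 2708 of the 2918 genes within the limits that were highest at ZT24 and ZT36. By single times, 42 were highest at ZT36, 32 at ZT24 and 5 at ZT40. Over all genes within the limits, whatever their highest pair, 31.7% were highest at ZT36, 11.3% at ZT24 and 36.9% at ZT40.

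In the 71 members highest at ZT28 and ZT40, median levels were 4.80, 9.19, 5.04, 4.66, 9.14 and 5.62 TPM over the same 6 times. ZT28 and ZT40 each have a sampled time on both sides, so the highs of the 63 members with their maxima there did not rest on joining ZT44 to ZT24. The other 8 had a maximum at ZT24 or ZT44, which did. ZT40 minus ZT28 was -0.005 at the median on the deposited scale and within 0.5 in 47 of 71 members. Of these genes, 43 were lowest at ZT24 and ZT36 and 28 at ZT32 and ZT44. The order was the other way in the 2358 genes within the limits that were highest at ZT28 and ZT40, with 709 and 1649. Of the 71 members, 34 had their single highest mean at ZT28, 34 at ZT40, 2 at ZT24 and 1 at ZT44. Over all genes within the limits, whatever their highest pair, 7.3% had it at ZT28, 36.9% at ZT40, 11.3% at ZT24 and 9.7% at ZT44.

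**Figure D2:**
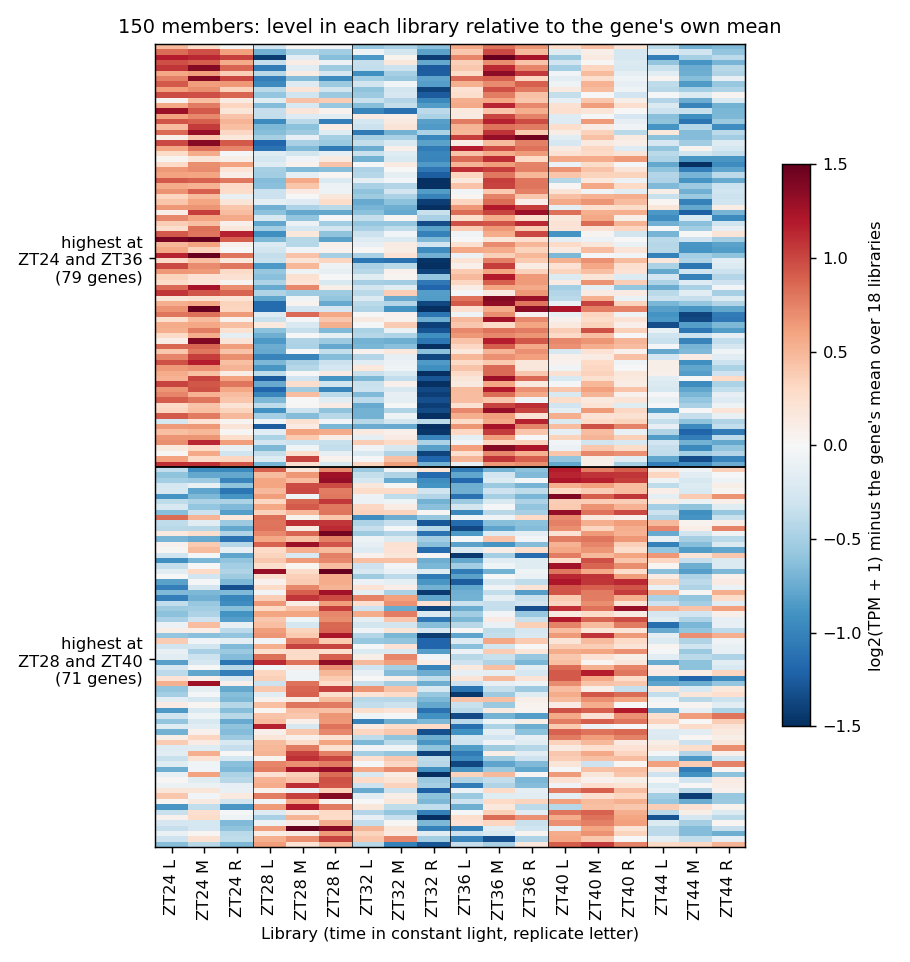
Level of each of the 150 members (rows) in each of the 18 libraries (columns, by time and replicate letter), as log2(TPM + 1) minus the gene's own mean, with red above and blue below it. The 79 genes in the upper block are red at ZT24 and ZT36 and the 71 in the lower block at ZT28 and ZT40, and the column of ZT32 R is the darkest blue in both blocks.

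The 6 members given first are those of largest 12-h R2, so they show the pattern at its clearest and not that of a usual member. Glyma.20G227300 (chromosome 20, 46195776 to 46199227, minus strand) had the largest 12-h R2 of the first class, 0.813. In L, M and R it had 6.59, 5.58 and 4.58 TPM at ZT24, 3.43, 4.49 and 4.26 TPM at ZT28, 2.65, 2.86 and 2.52 TPM at ZT32, 7.08, 8.52 and 7.58 TPM at ZT36, 5.58, 6.36 and 5.22 TPM at ZT40 and 3.08, 2.33 and 2.43 TPM at ZT44. All libraries of ZT36 were above those of every other time, while the ZT24 libraries overlapped with those of ZT40. The mean of the highest pair minus the mean of the other 4 times was 0.71 on the log2(TPM + 1) scale, and 0.54 after quantile normalization.

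Glyma.16G036300 (chromosome 16, 3446149 to 3454272, minus strand) had a 12-h R2 of 0.810 and stayed low between its highs. It had 7.31, 8.10 and 6.12 TPM at ZT24, 1.82, 2.36 and 2.23 TPM at ZT28, 3.41, 2.84 and 1.68 TPM at ZT32, 5.17, 8.26 and 5.53 TPM at ZT36, 3.10, 3.95 and 2.87 TPM at ZT40 and 3.08, 2.80 and 2.09 TPM at ZT44. Its 6 libraries of ZT24 and ZT36 lay above the 12 others. Those of the highest pair did so in 24 of the 150 members and in 0.46% of the genes within the limits. The difference between the highest pair and the other 4 times was 1.08, and 0.90 after quantile normalization.

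Glyma.17G163200 (chromosome 17, 14529301 to 14533247, minus strand), named after its values were seen, had the largest difference of all members, 1.76, and also the largest smaller high, 1.46 above the higher of its neighbours. It had 16.0, 15.4 and 14.2 TPM at ZT24, 1.79, 5.64 and 3.80 TPM at ZT28, 3.14, 6.78 and 1.81 TPM at ZT32, 11.4, 24.4 and 16.7 TPM at ZT36, 4.11, 7.26 and 5.31 TPM at ZT40 and 2.67, 4.30 and 4.69 TPM at ZT44. No library of another time came up to the lowest of the 6 high ones, although replicates at ZT36 differed widely. After quantile normalization its difference was 1.62.

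In the second class, Glyma.03G105700 (chromosome 3, 30363851 to 30367411, minus strand) had the largest 12-h R2 of all members, 0.842. Its values were 2.68, 1.46 and 1.42 TPM at ZT24, 7.80, 4.47 and 6.83 TPM at ZT28, 2.22, 3.55 and 4.42 TPM at ZT32, 1.27, 1.89 and 2.10 TPM at ZT36, 9.77, 7.06 and 7.88 TPM at ZT40 and 4.12, 3.52 and 5.07 TPM at ZT44. The ZT28 libraries lay above those of ZT24 and ZT32, but ZT28 M was below ZT44 R. Its difference was 1.17, and 1.01 after quantile normalization.

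Glyma.18G106300 (chromosome 18, 11900700 to 11905446, minus strand) had a 12-h R2 of 0.814 and all 6 libraries of ZT28 and ZT40 above the 12 others. It had 2.06, 1.75 and 1.73 TPM at ZT24, 5.49, 6.32 and 10.2 TPM at ZT28, 2.64, 2.41 and 1.07 TPM at ZT32, 1.71, 2.81 and 1.94 TPM at ZT36, 9.24, 8.85 and 8.81 TPM at ZT40 and 4.83, 3.18 and 3.60 TPM at ZT44. The difference was 1.42, and 1.30 after quantile normalization.

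Glyma.06G170300 (chromosome 6, 14267297 to 14276207, plus strand) had the largest difference of the second class, 1.45, and was named after its values were seen. It had 10.2, 9.92 and 7.01 TPM at ZT24, 23.0, 21.1 and 38.8 TPM at ZT28, 12.3, 8.47 and 7.36 TPM at ZT32, 6.08, 12.9 and 14.8 TPM at ZT36, 35.9, 34.9 and 31.8 TPM at ZT40 and 14.1, 12.5 and 14.1 TPM at ZT44. The ZT28 and ZT40 libraries were the 6 highest. After quantile normalization the difference was 1.30.

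**Figure D3:**
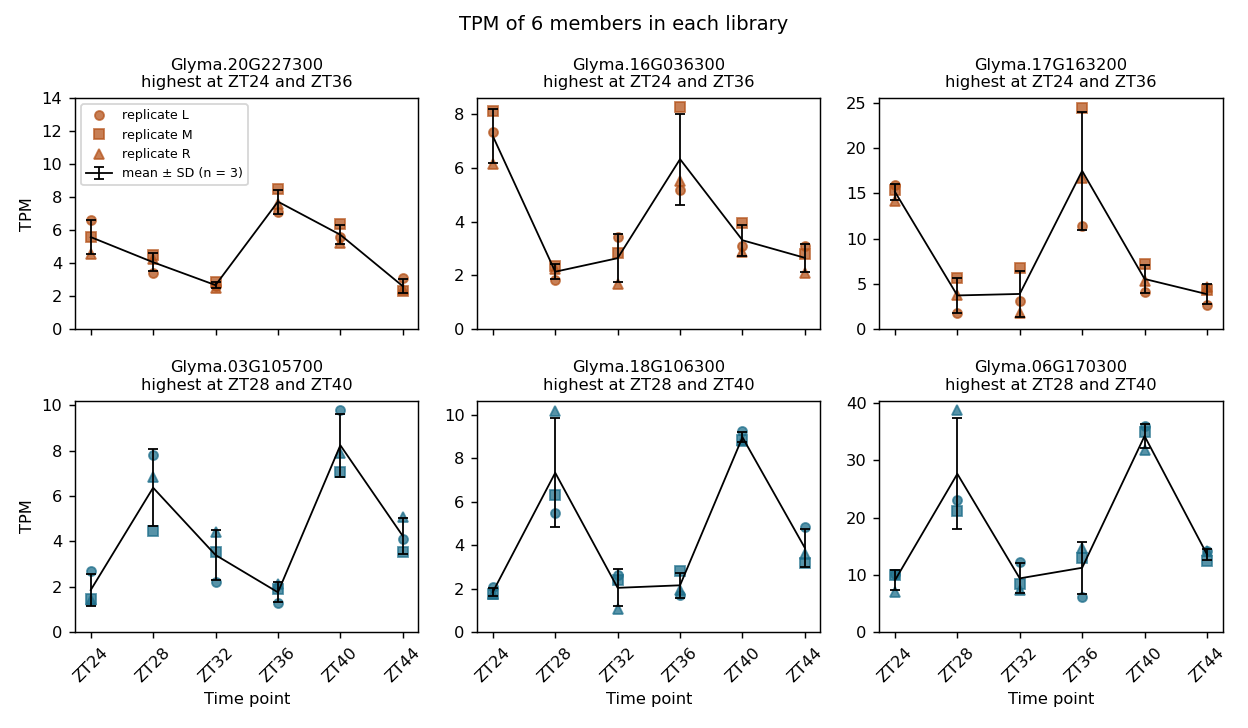
TPM in each library (points by replicate letter) at each time point, with the mean and SD of 3 replicates as a black line with bars. The 6 genes are the members of largest 12-h R2. The upper row shows 3 genes highest at ZT24 and ZT36 and the lower row 3 genes highest at ZT28 and ZT40, and Glyma.18G106300 was at 5.49 to 10.2 TPM at its highs and at most 4.83 TPM in the 12 other libraries.

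Values of 2 more abundant members are given here, named after their values were seen. Glyma.18G289000 (chromosome 18, 56863534 to 56867736, minus strand) averaged 32.3 ± 4.4, 84.1 ± 9.4, 26.4 ± 8.5, 23.7 ± 4.9, 65.4 ± 5.0 and 48.8 ± 8.7 TPM from ZT24 to ZT44 (SD, n = 3 each). At ZT44 its 3 libraries, at 43.2 to 58.8 TPM, were above all those of ZT24, ZT32 and ZT36. Glyma.19G083500 (chromosome 19, 30144985 to 30146430, minus strand), the member of highest mean TPM, averaged 549 ± 31, 295 ± 58, 297 ± 58, 457 ± 56, 434 ± 85 and 224 ± 68 TPM over the same times. Its ZT36 high was only 0.084 above ZT40 on the log2 scale, and the 3 libraries of ZT36, at 425, 522 and 426 TPM, overlapped with those of ZT40, at 396, 532 and 376 TPM. What this most abundant member showed was a high at ZT24 and a broad one over ZT36 and ZT40.

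Glyma.06G028000 (chromosome 6, 2183636 to 2186994, plus strand), the member of largest range, 1.99, did not have its maxima at the pair that it was highest in. It averaged 20.3 ± 10.0, 6.68 ± 2.40, 4.61 ± 2.56, 18.0 ± 7.9, 19.7 ± 4.0 and 5.20 ± 0.21 TPM from ZT24 to ZT44 (SD, n = 3 each), with maxima at ZT24 and ZT40. At ZT24 its replicates ran from 12.7 to 31.7 TPM.

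At the edge of the group, members and genes left out were hardly distinct. The last 2 members were Glyma.03G102700 (chromosome 3, 29504398 to 29511293, plus strand), at a 12-h R2 of 0.521 and a difference of 0.81, and Glyma.02G137400 (chromosome 2, 14214097 to 14219443, plus strand), at 0.521 and 1.01. The first 2 genes outside were Glyma.08G107300 (chromosome 8, 8250677 to 8253307, plus strand), at 0.518 and 1.27, and Glyma.20G128600 (chromosome 20, 37015598 to 37017590, plus strand), at 0.518 and 0.89. Glyma.08G107300 had 3.83 ± 1.48 TPM at ZT32 and 4.00 ± 1.80 TPM at ZT36 but 14.8 ± 1.0 TPM at ZT44, as high as its 14.6 ± 4.2 TPM at ZT40 (SD, n = 3 each). The 706 genes with a 24-h R2 under 0.3 that were not chosen had a median 12-h R2 of 0.304 and a median SD between replicates of 0.436.

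Replicates were then read one letter at a time, which describes the members but shares their values with the rule. Maxima at both times of the highest pair were present in 113 members in L, 118 in M and 122 in R, and in 82 members in all 3 letters, against 4.36% of the genes within the limits. The same pair of times was highest in all 3 letters in 132 members, against 43.4% of the genes within the limits. Of the 79 members highest at ZT24 and ZT36, 48 had their maxima there in all 3 letters, and of the 71 highest at ZT28 and ZT40, 34 did.

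To read the pattern in libraries that had no part in the choice, the rule was run on 2 letters, 12 libraries, and the 150 genes it took were read in the 6 libraries of the third. With L left out, 130 of 150 genes had the same highest pair in L, against 60.0% of all genes within the limits, and 93 had maxima at both its times, against 14.0%. In M, read the same way, 111 genes had the same highest pair, against 61.5%, and 72 had both maxima, against 26.3%. In R, 144 genes had the same highest pair, against 69.9%, and 110 had both maxima, against 21.4%. Genes with a 24-h R2 under 0.3 in the same 2 letters that were not chosen are a closer comparison: both maxima were present in 21.7% of them in L, 28.6% in M and 40.6% in R, and the same highest pair in 60.8%, 61.4% and 79.2%. The chosen genes had larger shares in each letter, and between 40 and 78 of 150 did not show both highs. This is a count and not a test. Plants of one time point shared that time, and a library-wide feature of a time, such as the lower aligned sequence at ZT44, would be in all letters alike, so its part in these counts was not tested. The 3 lists were also not the same genes as the members, of which they held 92, 78 and 91. After quantile normalization, added after the data were seen, both maxima were found in 86 genes in L, 86 in M and 107 in R, against 673 of 4173, 760 of 4248 and 690 of 3637 genes within the limits on that scale. In the closer comparison on that scale, both maxima were present in 24.7% of the genes not chosen in L, 24.3% in M and 38.0% in R. The chosen genes stood at 57.3%, 57.3% and 71.3%.

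**Figure D4:**
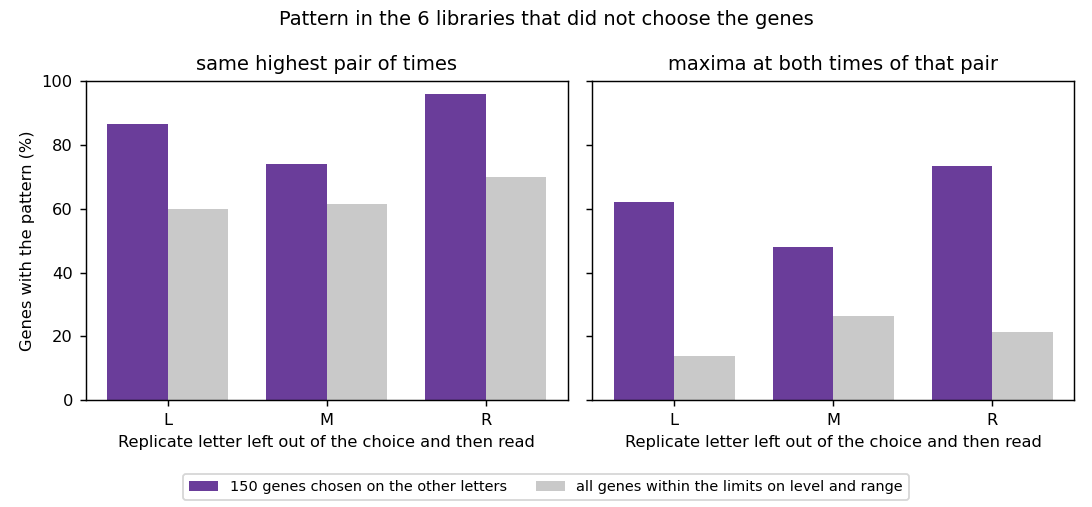
Share of genes (%) with the same highest pair of times (left) and with maxima at both times of that pair (right) in the replicate letter on the horizontal axis, which had no part in choosing them. Purple bars are the 150 genes chosen on the other letters and grey bars all genes within the limits on level and range, and in R both maxima were present in 73.3% of the chosen genes and 21.4% of all.

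How many members kept the pattern depended on the scaling. With ZT32 R left out, the rule took 116 of the 150 members again, and 120 kept every limit with a 12-h R2 at least that of the last member. After quantile normalization it took 64, which were all that kept every limit. The other 86 members failed at least one of them: the 24-h R2 reached 0.3 in 46, the 12-h R2 fell short in 55, the range left its limits in 27 and the level in 11. With the 100 highest genes removed and the rest rescaled it took 60, and with FPKM 121. The direction held more widely than membership, but its counts come from the libraries that chose the members. After quantile normalization, 144 members were still highest in the same pair of times, 148 had 2 maxima and 115 had them at that pair, and in 131 the 12-h R2 exceeded the 24-h R2. The same shares over other genes were not counted on this scale. As deposited, 91.5% of the 706 genes not chosen had 2 maxima, and 52.8% had them at their highest pair. Both quantile normalization and absence of ZT32 R were passed by 61 members.

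What quantile normalization changed most was the low at ZT32. Relative to a gene's own mean on the log2 scale, the median member was at -0.06 at ZT32 after quantile normalization and at -0.46 as deposited, and members above their own mean at ZT32 numbered 65 after it and 17 as deposited. The low at ZT44 was of like depth, at -0.39 after quantile normalization and -0.36 as deposited. In the class of ZT28 and ZT40, the median at ZT28 was 0.67 after quantile normalization and 0.58 as deposited, whereas that at ZT40 was 0.26 and 0.54. In the class of ZT24 and ZT36, the ZT24 median was 0.57 and 0.56, and the ZT36 median 0.41 and 0.62. The first high was thus of the same height or higher under quantile normalization, and the second was lower in both classes. The mean log2(TPM + 1) of the members, chosen by their 12-h R2, followed the 12-h pair over the 18 libraries with an R2 of 0.648. That of all genes within the limits did so with 0.201, and aligned sequence with 0.495. For the 24-h pair the 3 values were 0.045, 0.464 and 0.205. Aligned sequence was low at ZT44 only, at 3.30 Gb against 5.52 Gb or more at the other times.

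The times of the lows among the genes taken also moved with the scaling. In the 150 members, ZT32 and ZT44 was the lowest pair in 103. In the 150 genes that the rule took after quantile normalization it was the lowest in 56, against 59 for ZT24 and ZT36 and 35 for ZT28 and ZT40, and 14 genes were highest there. Without ZT32 R, 72 of the 150 genes taken were lowest at ZT32 and ZT44, and 4 were highest there. So the near absence of genes with highs at ZT32 and ZT44 held for TPM as deposited and less so after quantile normalization.

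**Figure D5:**
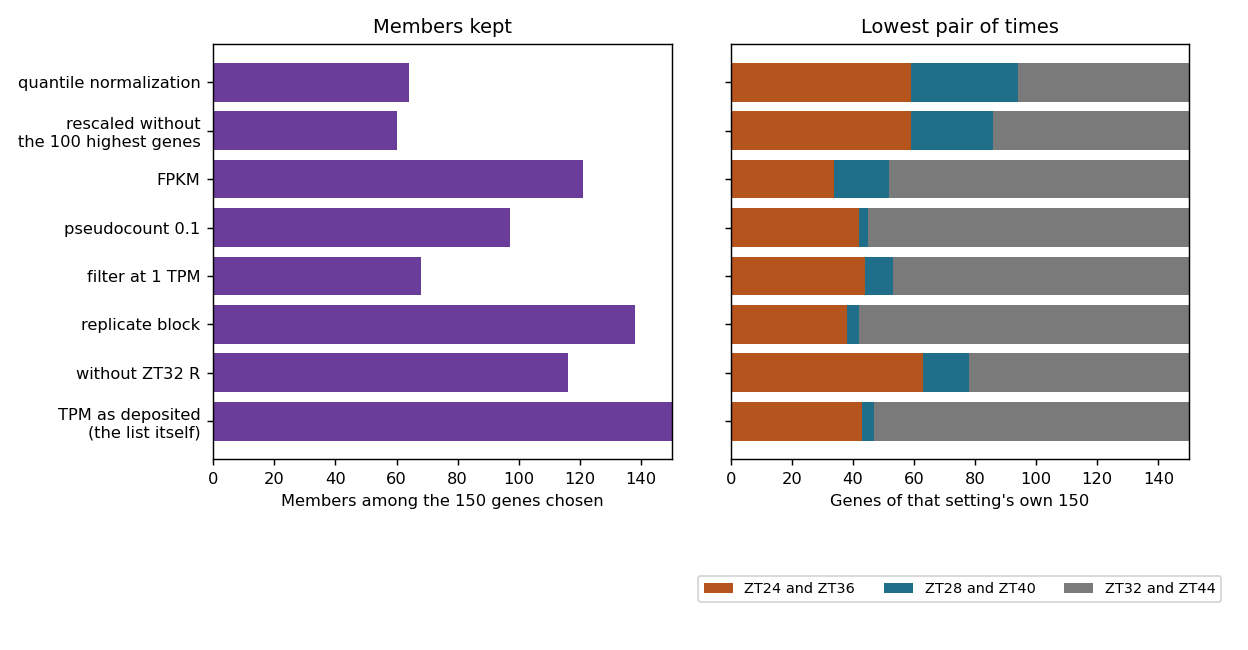
Left, number of the 150 members among the 150 genes that the rule takes under each setting. Right, the lowest pair of times of the 150 genes that each setting takes, with the list itself at the bottom. ZT32 and ZT44 was the lowest pair in 56 genes after quantile normalization and in 103 for TPM as deposited.

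Leaving out each of the 18 libraries in turn, 58 members were taken every time. With all scalings, filters and pseudocounts added, 25 alternatives in all, 19 members were taken every time, 10 highest at ZT24 and ZT36 and 9 at ZT28 and ZT40. Among these are Glyma.20G227300, Glyma.16G036300, Glyma.06G170300 and Glyma.18G289000, described above. The most abundant of the 10 was Glyma.07G015800 (chromosome 7, 1258348 to 1267593, minus strand), with 14.6 ± 2.4, 4.27 ± 1.31, 6.47 ± 2.37, 16.7 ± 2.3, 9.05 ± 3.46 and 4.41 ± 1.05 TPM from ZT24 to ZT44 (SD, n = 3 each). Its highest pair exceeded the other 4 times by 1.32 as deposited and by 1.16 after quantile normalization. In Glyma.18G289000 the 12-h R2 was 0.867 after quantile normalization and 0.705 as deposited. In Glyma.19G083500, the most abundant member, it was 0.426 and 0.627, and the 24-h R2 of 0.306 put it outside the rule.

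Members were found on all 20 chromosomes, with 2 members on chromosome 16 at the low end and 12 on chromosome 8 at the high end. On the plus strand lay 77 of 150, against 2698 of 5459 genes within the limits. No 2 members were neighbours in the order of annotated genes, from which nothing is read, since a list this short would hold few such pairs in any case. Members that overlap a gene on the other strand numbered 8, or 5.33%, against 4.41% of the genes within the limits, and TPM of such genes can be shared with the partner where strand was not used. The annotated span of a member was 3758.5 bases at the median, against 3785 bases for the genes within the limits.

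The 8 clock and light-signalling genes that could be looked up by identifier were not members. Other clock genes were not looked up. GmLHY1a (Glyma.16G017400), GmLHY1b (Glyma.07G048500), GmLHY2a (Glyma.19G260900) and GmLHY2b (Glyma.03G261800), morning repressors of the clock, had 24-h R2 values of 0.954, 0.959, 0.947 and 0.960 and 12-h R2 values of 0.019, 0.013, 0.014 and 0.013. GmPRR5d (Glyma.07G049400), a pseudo-response regulator, had a 24-h R2 of 0.934, and GmPIF4 (Glyma.08G303900), a light-signalling transcription factor, of 0.871. GmLUX1 (Glyma.12G060200) and GmLUX2 (Glyma.11G136600), of the evening complex, had 0.760 and 0.730, with 12-h R2 values of 0.088 and 0.211. Each of these 8 genes had a single circular maximum. All 8 lay outside the limits on level or range, with GmLUX1 at no more than 1.50 TPM and the other 7 at ranges of 2.80 to 6.81, so their absence from the list was fixed before any R2 was compared.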

How the data were processed

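RNA-seq libraries of Ws82 leaves (18, grouped by their labels) were used. Reads were trimmed (Trimmomatic), mapped to Gmax_Wm82_a2_v1 (HISAT2 2.2.1) and quantified (StringTie) by the authors. The deposited tables list coverage, a signal per base, FPKM and TPM. The deposited TPM is treated as a score, because assembled loci alone sum to 1000000 per library and annotated genes are listed on the same scale beside them. TPM was summed per gene in 11 libraries that list a gene on 2 lines. Values were analysed as log2(TPM + 1). Read counts are not in these tables, so no interval from counting is given, and coverage over FPKM gave aligned sequence as a measure of depth. Least-squares fits used Python 3.11.15 and numpy 2.4.6, and 12-h and 6-time F-tests used limma 3.58.1 in R 4.3.3 (eBayes with trend, Benjamini-Hochberg over 24620 genes, threshold 0.05). The programs were tested on simulated data.

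The members and all lists were chosen with earlier results of these data known. Named genes are the 2 of largest 12-h R2 in each class, the member of largest range, and the last 2 inside and first 2 outside the rule. Others were named after their values were seen. Alternatives were FPKM in place of TPM, quantile normalization, rescaling to the genes outside the 100 highest, a pseudocount of 0.1, other filters, limma without trend or with cosine terms only, a block for the replicate letter, and leaving out single libraries. Planned lists by gene product were not counted, because no identifier matched the reference table.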

Additional observations from a re-analysis of the deposited data

How the results depend on the processing

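Of the 150 members, the rule took 64 again after quantile normalization, 60 with TPM rescaled without the 100 highest genes, 97 with a pseudocount of 0.1, and 68 with a filter at 1 TPM or none, where genes of lower level displaced members that still kept every limit. With quantile normalization and ZT32 R left out together, added after the data were seen, it took 65. Leaving out 1 library kept 116 to 132 members, 126 to 136 with maxima at the highest pair, 76 to 80 highest at ZT24 and ZT36, 70 to 74 at ZT28 and ZT40 and 0 to 1 at ZT32 and ZT44. Highest at ZT32 and ZT44 were 5 members after quantile normalization, 4 with ZT32 R also left out, 3 after rescaling and 1 with FPKM. Requiring both highs to be at least 0.5 above their neighbours left 55 members. The cause of these shifts was not tested. With a replicate block, which removes the mean of each letter, 138 members were taken, and 7180 genes passed the 12-h test against 6550 without the block. The letters did not clearly pair the libraries. Same-letter libraries of different times had a median correlation of -0.013 in their deviations from the time means, with 10 of 45 pairs over 0.1. Libraries of different letters and times had a median of 0.002, with 16 of 90 pairs over 0.1. Of the 18 libraries, 8 were closest to one of their own letter. The 12-h test called 4766 to 8657 genes and the 6-time test 17445 to 19568 with 1 library left out. With a filter at 5 TPM, fewer genes were tested and 4209 and 8911 were called. All other counts were within 1.5 times. Aligned sequence was lowest at ZT44, at 3.11 to 3.53 Gb, and the effect of depth on the members was not tested.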
